A study of Rattus norvegicus with 12 samples.

Results

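The rats that had an embolic stroke and received both acupuncture and rt-PA (rt-PA+Acu) were compared with Sham rats across all genes, to ask which differences from Sham cortex remained under the combined treatment. The comparison used 6 of the 12 RNA sequencing libraries of the series, 3 rt-PA+Acu and 3 Sham, all from the cerebral cortex of male Sprague Dawley rats. Of the 17268 genes in the count table, 12775 had enough counts in these 6 libraries to be tested. The rt-PA+Acu rats had a blood clot placed in the middle cerebral artery, acupuncture at the Shuigou and Neiguan points at 2 h, and recombinant tissue plasminogen activator (rt-PA), which dissolves clots, at 10 mg/kg at 6 h. Sham rats had the operation without the clot. Model rats (clot only) and rt-PA rats (clot and rt-PA at 6 h), 3 libraries each, are given only as side values, since Model against Sham shares the Sham libraries and rt-PA+Acu against rt-PA shares the rt-PA+Acu libraries. No acupuncture-only group or acupuncture in sham-operated rats was analysed here, and the labels do not name the hour at which the sequenced cortex was taken. The labels do not tie libraries to individual animals, so p-values measure the spread between these libraries.

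Total counts per library were 11678450 to 13616935, and levels are given as CPM, counts scaled to library sizes that edgeR's TMM method adjusts. Several features of the libraries run alongside the groups and are given before the results. Genes that mark the projection neurons of the striatum, a region under the cortex, summed to 477, 1370 and 1030 CPM in Sham replicates 1, 2 and 3, and to 285 to 387 CPM in rt-PA+Acu, so these markers were higher in Sham replicates 2 and 3 than in any other of the 12 libraries. Markers of cortical excitatory neurons were present throughout, at 2350 to 2630 CPM in Sham and 1750 to 3010 CPM in rt-PA+Acu. Another feature separated the 3 Sham libraries and Model replicate 3 from the other 8 libraries: 54 genes of the table lay over 1.5-fold outside the Sham range in all 8, while Model replicate 3 kept within 1.5-fold of that range. The same count with any other Model or rt-PA library in the place of Model replicate 3 gave 1 to 11 genes, and with rt-PA+Acu replicates 1, 2 and 3 in that place it gave 181, 96 and 24. The labels name no batch, and because every Sham library lies on one side of this split and every rt-PA+Acu library on the other, the split and the groups cannot be told apart for these genes. In addition, rt-PA+Acu replicate 3 was the highest of its group at 77 of the 117 genes that rose and the lowest at 90 of the 146 that fell. In bulk tissue, fewer cells of a type and less RNA per cell cannot be told apart.

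After an ischaemic stroke, astrocytes enlarge and switch on intermediate filament, acute phase and matrix genes, and microglia leave their resting state, lose receptors such as P2ry12 and take on a phagocytic program that clears debris and lipid. Neurons report their recent activity through immediate early genes, transcription factors and synaptic regulators whose RNA is made and lost within minutes to hours. The brain's capillaries are lined by endothelial cells held closed by tight junctions and wrapped by pericytes, and arterioles carry contractile smooth muscle. rt-PA converts plasminogen to plasmin, which cuts fibrin in the clot, and its late use is limited by damage to this vessel wall and by bleeding.

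Differentially expressed genes (DEGs) had a Benjamini-Hochberg adjusted p under 0.05 in edgeR's quasi-likelihood test and an absolute log2 fold change over 1. There were 263 DEGs among the 12775 genes, 2.06% of those tested. Of these, 117 were higher in rt-PA+Acu (0.916%) and 146 were lower (1.14%). At all 263 the 3 rt-PA+Acu libraries lay outside the range of the 3 Sham libraries, which was also the case at 3923 or 30.7% of all genes tested. The rises were the larger changes, with a median log2 fold change of 1.62 against -1.28 for the falls, 41 genes over 4-fold higher and 17 over 4-fold lower. The median of all genes tested was 0.02. When each of the 6 libraries was left out in turn, 73 DEGs (38 higher, 35 lower) were called in all 6 fits, among them Gfap, Gpnmb, C3, Mmp9, Egr1, Egr2, Arc, Pecam1, Acta2 and Rpl39. Alternatives that bear on the library features gave far fewer calls: 4 genes (3 higher, 1 lower) were DEGs when all 12 libraries were fitted together with a term for the split, among them Egr2, Mmp9 and Fcgr2b. With Sham replicate 1 as the only Sham library edgeR called 0 DEGs, 480 genes passed the fold threshold at an unadjusted p under 0.05, and DESeq2 called 163, while all 263 DEGs kept their direction. The kept direction largely follows from the separation given above, since at all 263 the rt-PA+Acu libraries lay outside the Sham range. It adds little to the comparison. The plot of fold change against adjusted p shows where the named groups lie.

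**Figure D1:**
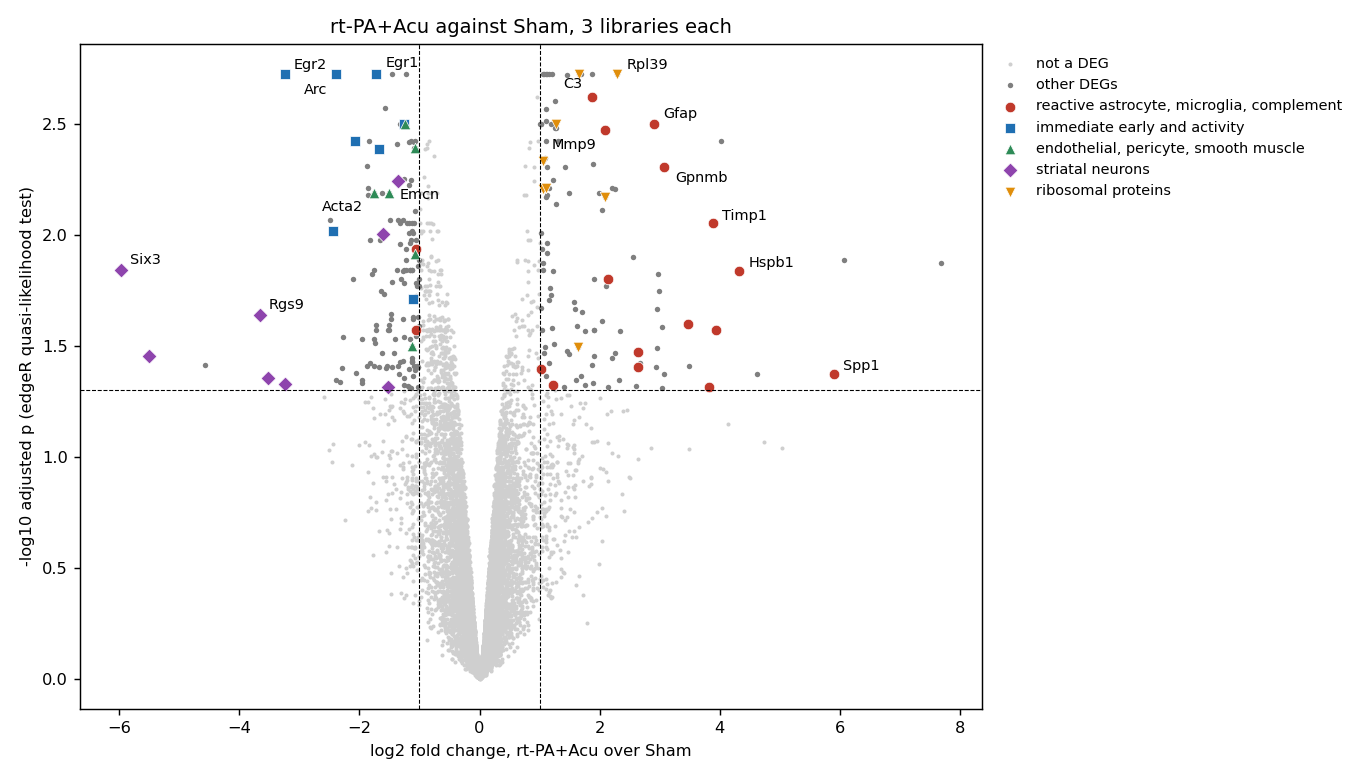
Each point is 1 of the 12775 genes tested, with the log2 fold change of rt-PA+Acu over Sham on the horizontal axis and the negative log10 of the adjusted p on the vertical axis, and dashed lines at the thresholds. Genes of reactive glia lie to the right with Spp1 at 5.89, apart from Apoe and Lpl on the left, immediate early genes lie at the upper left with Egr2 at -3.24, the 6 vascular DEGs lie between -1.07 and -1.76, striatal markers reach furthest to the left with Six3 at -5.96, and the 8 ribosomal protein DEGs lie between 1.06 and 2.29. Coloured points are DEGs, so list members that did not pass are grey.

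Genes were grouped in 50 lists by cell type and pathway, and each list is described by its DEGs and the median over its tested members. Among lists with at least 5 tested genes, those furthest above Sham were reactive astrocytes, with a median of 1.66, cell cycle genes at 0.71 and heat shock proteins at 0.66. Furthest below were striatal projection neurons at -1.61, immediate early genes at -1.16, endothelial cells at -0.82, glucocorticoid targets at -0.71 and pericytes and smooth muscle at -0.62. For the immediate early and the vascular lists, the medians of Model over Sham were 0.58, -0.12 and -0.33, so these lists stood lower against Sham in rt-PA+Acu than in Model. The difference between those medians was not tested.

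**Figure D2:**
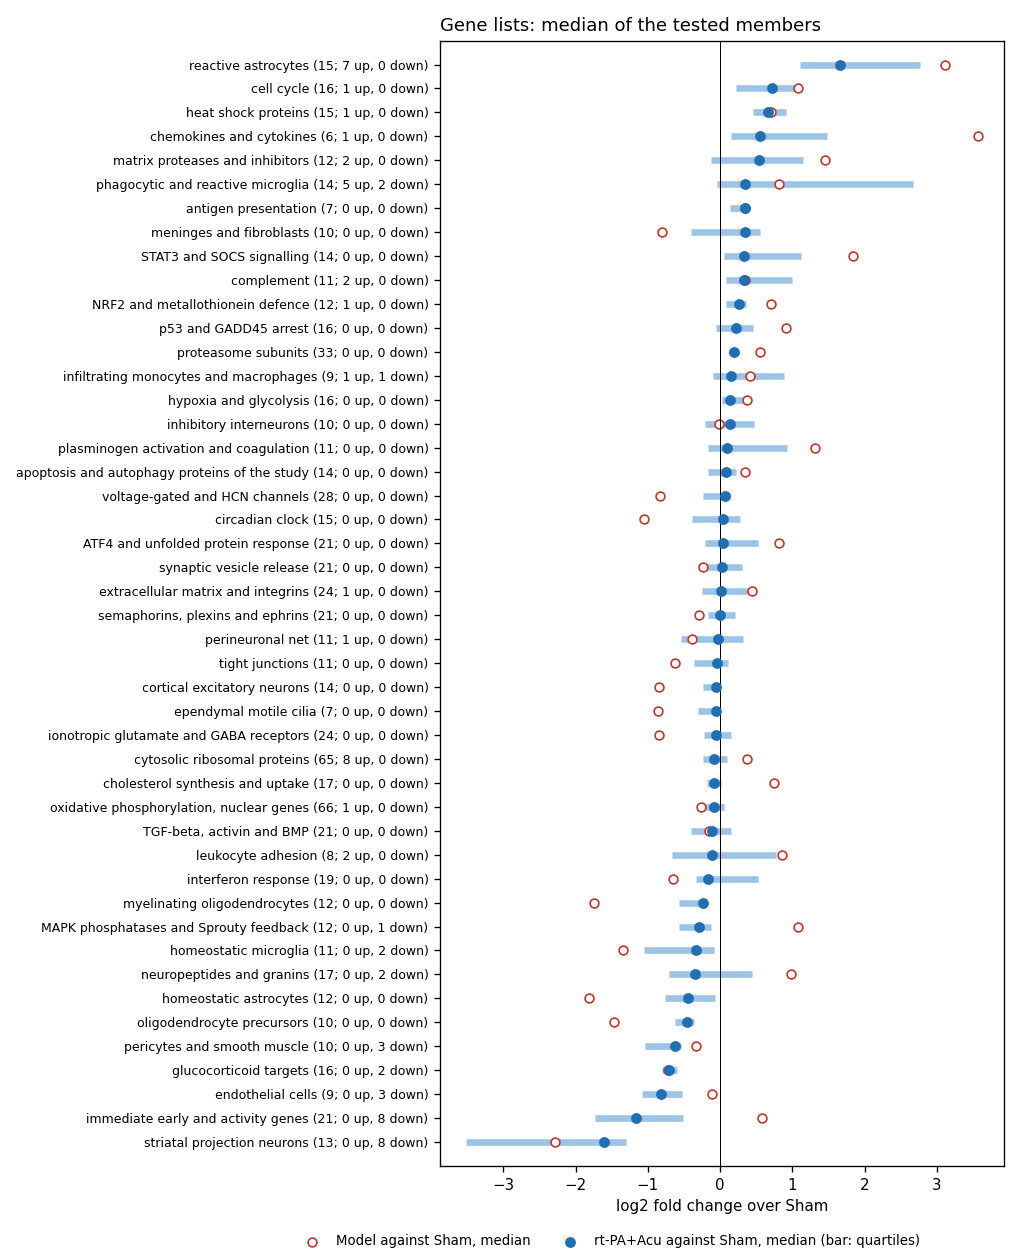
Median log2 fold change over Sham of the tested members of each list with at least 5 tested genes, for rt-PA+Acu (filled points, bars from the lower to the upper quartile of the members) and Model (open points), with the number tested and the DEGs of rt-PA+Acu against Sham in brackets. The reactive astrocyte list stood at 1.66 in rt-PA+Acu and 3.11 in Model, while the immediate early list stood at -1.16 and 0.58.

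Reactive astrocyte genes were the clearest group above Sham. Of 17 genes on the list 15 were tested, 7 rose and none fell, and the other 8 did not pass. Gfap, the intermediate filament protein that defines reactive astrocytes, was at 398, 415 and 363 CPM in the Sham libraries and at 2190, 2180 and 4390 CPM in rt-PA+Acu. All 3 treated libraries were far above Sham, 2 at the same level and replicate 3 higher. Its log2 fold change was 2.90 ± 0.29 (SE, n = 3 per group, adjusted p = 0.00314), a 7.45-fold rise, beside 3.10 for Model over Sham, and rt-PA+Acu over rt-PA differed by -0.15 (adjusted p = 0.694). Timp1, the secreted inhibitor of matrix metalloproteinases, was at 2.18, 2.14 and 2.01 CPM in Sham and at 23.2, 13.9 and 56.5 CPM in rt-PA+Acu. Its rise of 3.89 ± 0.53 (adjusted p = 0.00885) stood beside 6.76 for Model over Sham, and against rt-PA it stood at -3.43 (adjusted p = 0.00689), so Timp1 lay between Sham and the other stroke groups.

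The rises of the other reactive genes were less even. Lcn2, the iron-scavenging acute phase protein lipocalin 2, was at 0.961 to 2.43 CPM in Sham and at 6.23, 18.6 and 45.9 CPM in rt-PA+Acu, a rise of 3.93 ± 0.74 beside 3.45 in Model. Hspb1, a small heat shock protein, was at 4.37 to 7.60 CPM in Sham and at 63.5, 53.9 and 272 CPM in rt-PA+Acu, a rise of 4.32 ± 0.68 beside 5.51 in Model. Cd44, the hyaluronan receptor, was at 6.31 to 8.65 CPM in Sham and at 22.1, 25.6 and 88.7 CPM in rt-PA+Acu, a rise of 2.64 ± 0.53 beside 5.07 in Model. In each, replicate 3 was several times as high as the lowest treated library, and Hspb1 in that library was within the range of the Model and rt-PA libraries (230 to 321 CPM). Ptx3, a pentraxin of innate immunity, rose by 2.63 ± 0.57 beside 6.73 in Model, and S100a10, an annexin partner at the cell surface, by 1.23 ± 0.28 beside 3.06. Vim, another intermediate filament, stood at 1.13 (adjusted p = 0.119) and Nes at 1.66 (adjusted p = 0.102). Gfap was called in all 6 fits that leave out a library, Timp1 in all but the fit without Sham replicate 2, and the others in 1 to 3 of them. Without rt-PA+Acu replicate 3 the list held 5 rises and a median of 1.04, and with Sham replicate 1 as the only Sham library its median was 1.92.

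**Figure D3:**
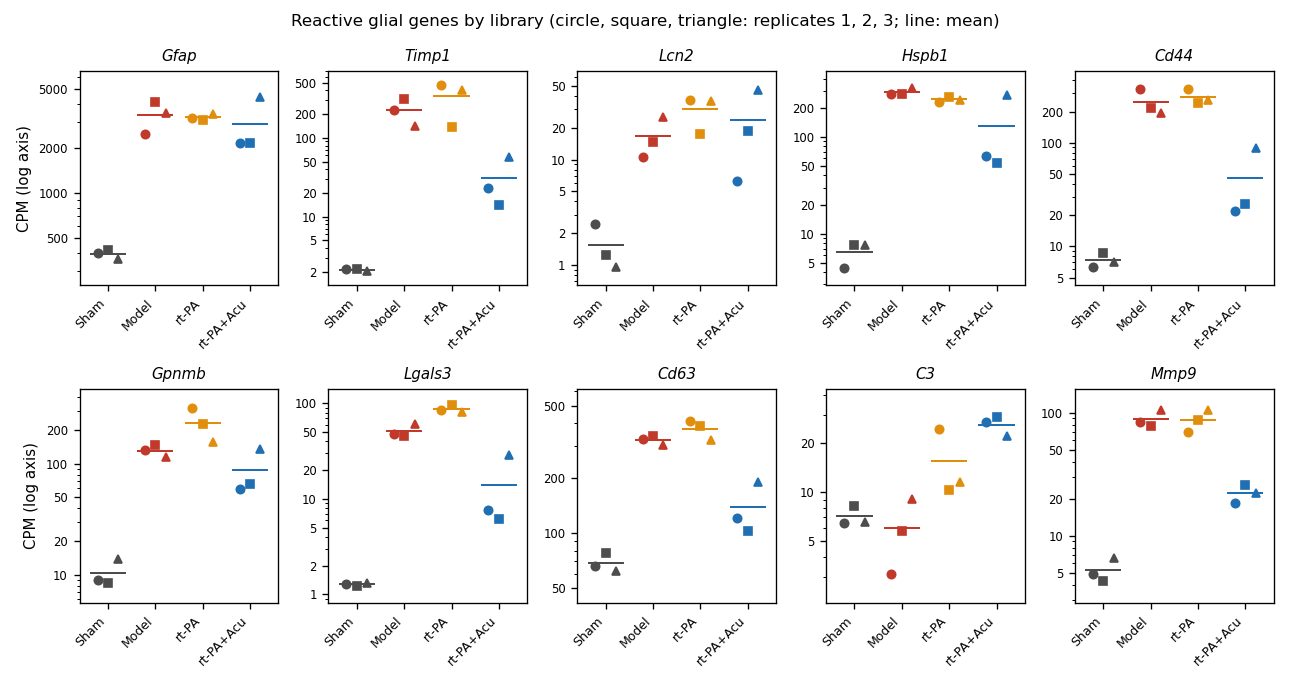
CPM on a log axis for 10 genes of reactive glia in every library of the 4 groups, with circle, square and triangle for replicates 1, 2 and 3 and a line at the mean. These genes were taken from the DEGs, at all of which the groups were apart, as they were at 30.7% of all genes tested. All rt-PA+Acu points therefore lie above all Sham points. For Timp1, Cd44, Lgals3, Cd63 and Mmp9 they also lie below the Model and rt-PA points, for Gfap they overlap the Model range, and for C3 they lie above the Model points.

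Genes of phagocytic microglia moved in both directions. Of 16 on the list 14 were tested, 5 rose (Spp1, Gpnmb, Lgals3, Itgax and Cd63) and 2 fell (Apoe and Lpl). Gpnmb, a lysosomal glycoprotein of lipid-laden phagocytes, was at 8.98, 8.42 and 14 CPM in Sham and at 59.9, 65.9 and 137 CPM in rt-PA+Acu. The groups were clearly apart, with a rise of 3.07 ± 0.36 (adjusted p = 0.00494) beside 3.66 in Model. Lgals3, the galectin of activated phagocytes, was at 1.23 to 1.31 CPM in Sham and at 7.75, 6.10 and 28.5 CPM in rt-PA+Acu, a rise of 3.47 ± 0.63 beside 5.34. Spp1, the secreted matrix protein osteopontin, was at 0.0809, 1.07 and 2.36 CPM in Sham and at 12.4, 16.7 and 174 CPM in rt-PA+Acu. The treated libraries were above Sham but far from each other, and the rise of 5.89 ± 1.30 (adjusted p = 0.0423) was called in 2 of the 6 fits that leave out a library. Itgax, an integrin of phagocytes, rose by 3.82 ± 0.88 from under 0.5 CPM in each Sham library and was called in 1 of those 6 fits. Cd63, a tetraspanin of late endosomes, rose by 1.02 ± 0.22 and was called in 2 of those 6 fits.

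The genes of this list that fell were Apoe and Lpl. Apoe, the main lipid carrier of the brain, which astrocytes also make, was at 2200, 2180 and 1900 CPM in Sham and at 1220, 947 and 878 CPM in rt-PA+Acu, a fall of 1.05 ± 0.15 (-1.05, adjusted p = 0.0116) beside -1.53 in Model. Lpl, lipoprotein lipase, was at 28.8 to 46.4 CPM in Sham and at 15.4 to 17.5 CPM in rt-PA+Acu (-1.06 ± 0.20), but stood at 0.66 in the fit with a term for the library split. Markers of resting microglia were lower as well: 2 of 11 tested fell, and the list median was -0.33 beside -1.34 in Model. P2ry12, the purinergic receptor by which resting microglia sense injury, was at 69.8, 63.1 and 65.4 CPM in Sham and at 37.8, 40.2 and 19.5 CPM in rt-PA+Acu (-1.03 ± 0.24, adjusted p = 0.0483). The Model libraries held 4.38 to 6.41 CPM and the rt-PA libraries 3.33 to 4.81 CPM, so P2ry12 in rt-PA+Acu lay between these and Sham, 3.06 above rt-PA on the log2 scale (adjusted p = 0.00133). Tmem119, another marker of resting microglia, fell by 1.41 ± 0.28 (-1.41) beside -1.93, whereas Cx3cr1 stood at -0.14 (adjusted p = 0.649) and Csf1r at -0.33 (adjusted p = 0.203). Of the 6 fits that leave out a library, P2ry12 was called in 1, Apoe in 2, and Lpl and Tmem119 in 3.

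C3, the central component of complement, lay higher in every rt-PA+Acu library than in any Sham or Model library. It was at 6.47, 8.27 and 6.55 CPM in Sham and at 26.9, 29.0 and 22.3 CPM in rt-PA+Acu, with little spread in either group. The rise was 1.87 ± 0.17 (adjusted p = 0.00239), beside -0.24 (adjusted p = 0.591) for Model over Sham and 0.75 (adjusted p = 0.113) for rt-PA+Acu over rt-PA. Serping1, the inhibitor of the first complement enzymes, rose by 2.14 ± 0.35, and these were the 2 DEGs among 11 complement genes tested, while C1qa, C1qb and C1qc stood at 0.04, 0.44 and 0.33. Mmp9, the gelatinase that degrades the basement membrane of vessels and is also stored by neutrophils, was at 4.85, 4.29 and 6.55 CPM in Sham and at 18.5, 25.8 and 22.2 CPM in rt-PA+Acu. The rise was 2.09 ± 0.21 (adjusted p = 0.00334) beside 4.10 in Model, and Mmp9 stood at -1.98 against rt-PA (adjusted p = 0.00118).

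Neutrophil markers other than Mmp9 were sparse, with 4 of 12 tested, and S100a9 and the rest of the tested genes were not DEGs. Itgal and Itgam, leukocyte integrin subunits, rose by 2.11 ± 0.35 and 1.69 ± 0.38, and were the 2 DEGs of 8 adhesion genes tested. Itgam is shared by microglia, monocytes and neutrophils. Lyz2, the lysozyme of macrophages, moved the other way, from 47.5 to 61.3 CPM in Sham to 20.8 to 29.6 CPM in rt-PA+Acu (-1.12 ± 0.16), beside 0.85 in Model. Fcgr2b, the inhibitory Fc receptor, named after its values were seen, rose by 2.04 ± 0.27 and was 1 of 4 genes called in the fit with a term for the library split described above. Chemokines and cytokines were mostly too low to test: 6 of 28 passed the filter, and the 1 DEG, Cxcl13, a B cell chemokine, had 6 counts in the Sham group and 38 in rt-PA+Acu (ratio 6.36, 95% counting interval 2.67 to 18.4). Lymphocyte markers passed at 1 of 13 genes, with no DEG. The part of infiltrating cells in these values was not tested.

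Immediate early and activity genes were, with the striatal list described further on, the list with the most falls. All 22 genes of the list but 1 were tested, 8 fell and none rose, 19 of the 21 had a log2 fold change below 0, and 13 had an unadjusted p under 0.05, all lower, beside 2964 of all 12775 genes tested in either direction. The fall covered the Egr family of zinc finger transcription factors (Egr1, Egr2, Egr3 and Egr4), the orphan nuclear receptors Nr4a1 and Nr4a2, the synaptic regulator Arc and the neurotrophin Bdnf. Of these, Egr2, Egr4 and Nr4a1 are shown by the 300 bases that span their start sites in RefSeq (build GRCr8). All 3 fell in this comparison, while Model over Sham was 0.85, -0.13 and -1.60 for them. Activity-driven transcription of immediate early genes runs through promoter elements bound by CREB and by serum response factor. A part of these elements in the falls was not tested. Each line is 5′ to 3′ on the gene's strand, and capitals mark TGACG, the core of the CREB response element, searched on both strands (as TGACG and CGTCA, where neighbouring matches may overlap). The windows are chr20:21054392-21054691 on the minus strand for Egr2, chr4:119607768-119608067 on the minus strand for Egr4 and chr7:134259888-134260187 on the plus strand for Nr4a1.
Egr2 promoter: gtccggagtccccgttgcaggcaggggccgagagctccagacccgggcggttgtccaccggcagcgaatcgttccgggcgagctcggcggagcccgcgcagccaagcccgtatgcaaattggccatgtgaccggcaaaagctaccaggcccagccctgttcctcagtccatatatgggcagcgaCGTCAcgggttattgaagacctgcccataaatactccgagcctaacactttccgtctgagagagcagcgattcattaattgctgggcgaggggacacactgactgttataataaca
Egr4 promoter: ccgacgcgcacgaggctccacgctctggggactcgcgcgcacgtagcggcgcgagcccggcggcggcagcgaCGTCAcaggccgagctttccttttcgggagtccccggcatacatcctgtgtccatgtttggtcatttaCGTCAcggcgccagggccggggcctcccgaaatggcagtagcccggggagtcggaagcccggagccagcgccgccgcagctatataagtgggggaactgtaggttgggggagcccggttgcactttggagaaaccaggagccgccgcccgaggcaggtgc
Nr4a1 promoter: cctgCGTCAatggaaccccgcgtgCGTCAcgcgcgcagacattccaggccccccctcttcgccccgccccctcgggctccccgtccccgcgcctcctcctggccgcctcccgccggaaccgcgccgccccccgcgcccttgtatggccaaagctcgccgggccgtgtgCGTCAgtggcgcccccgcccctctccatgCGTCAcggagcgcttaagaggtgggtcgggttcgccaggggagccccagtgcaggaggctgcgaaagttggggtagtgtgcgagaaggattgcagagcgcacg

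These windows held 1, 2 and 4 of the cores. Of the 8 genes that fell, 6 had a promoter in the RefSeq table and all 6 held at least 1 core, as did 6 of the 11 other genes of the list with a promoter there. These counts are per gene, and Bdnf has 6 promoters in the table, of which 1 held a core. Over all 33469 promoters of the same length, counted per promoter, the share was 21.2%. The CArG box, the serum response factor site, occurred in Egr1 and Egr2, in none of those 11 and in 1.64% of all promoters. A match describes the letters and not the use of a site.

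Egr2 fell the furthest. It was at 22.3, 18.1 and 14.9 CPM in Sham and at 1.43, 2.53 and 1.87 CPM in rt-PA+Acu, a 9.49-fold difference with no overlap (-3.24 ± 0.26, adjusted p = 0.00188). In the rt-PA libraries Egr2 was at 10.3 to 14.5 CPM, so rt-PA+Acu also lay below rt-PA (-2.64, adjusted p = 0.00134), and Model over Sham was 0.85 (adjusted p = 0.0945). Arc was at 153, 221 and 146 CPM in Sham and at 37.5, 26.4 and 35.6 CPM in rt-PA+Acu (-2.38 ± 0.20, adjusted p = 0.00188). The rt-PA libraries lay in nearly the same range, at 31.9 to 43.2 CPM (-0.21 for rt-PA+Acu over rt-PA, adjusted p = 0.379). Egr1 was at 283, 228 and 230 CPM in Sham and at 89.4, 69.9 and 66.2 CPM in rt-PA+Acu (-1.72 ± 0.15, adjusted p = 0.00188). It too did not pass against rt-PA (-0.35, adjusted p = 0.259).

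Nr4a1 was at 94.5, 81.2 and 68.2 CPM in Sham and at 28.5, 18.9 and 28.9 CPM in rt-PA+Acu (-1.68 ± 0.19). Nr4a2, which marks deep cortical neurons as well as activity, fell from 48.5 to 81.2 CPM in Sham to 6.14 to 17.1 CPM in rt-PA+Acu (-2.44 ± 0.34). For both, Model over Sham was similar in size, at -1.60 and -2.61. Bdnf went opposite ways in the stroke groups: it was at 36.7 to 40.3 CPM in Sham, 125 to 235 CPM in Model, 53.3 to 69.0 CPM in rt-PA and 12.4 to 20.5 CPM in rt-PA+Acu, a fall of 1.11 ± 0.19 below Sham (-1.11) beside a rise of 2.35 in Model. Egr3 (-1.26 ± 0.12) and Egr4 (-2.07 ± 0.22) also fell. Fos and Fosb, named after their values were seen, varied more within Sham, with 50.8, 17.5 and 13.7 CPM of Fos and 87.8, 14.1 and 17.0 CPM of Fosb, and stood at -1.16 (adjusted p = 0.31) and -1.73 (adjusted p = 0.173). Jun stood at 0.13 (adjusted p = 0.807). Egr1, Egr2, Egr3, Egr4, Arc and Nr4a1 were called in all 6 fits that leave out a library, Nr4a2 in all but the fit without Sham replicate 2, and Bdnf in 2 of them. Without rt-PA+Acu replicate 3 there were 8 falls on the list, and with Sham replicate 1 as the only Sham library the median was -1.63.

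Dusp6, the phosphatase that switches off ERK and is itself induced by ERK, was at 62.6, 71.3 and 57.9 CPM in Sham and at 30.0, 33.0 and 28.6 CPM in rt-PA+Acu (-1.07 ± 0.11, adjusted p = 0.00377), while Model stood at 1.06 over Sham. It was the 1 DEG of 12 phosphatase and Sprouty genes tested, with a list median of -0.29 beside 1.08 in Model. Crh, corticotropin-releasing hormone, was at 11.5, 7.04 and 5.77 CPM in Sham, 21.3 to 30.9 CPM in Model and 1.68 to 2.88 CPM in rt-PA+Acu (-1.75 ± 0.34, adjusted p = 0.0295). Pdyn, the precursor of dynorphin, fell from 36.5 to 49.8 CPM to 13.6 to 20.5 CPM (-1.49 ± 0.20). These were the 2 DEGs of 17 neuropeptide genes tested, and Chgb (0.71) and Cck (0.56) stood above Sham without reaching the fold threshold. Of the 6 fits that leave out a library, Crh was called in 2, and Pdyn and Dusp6 in 5. Pdyn is also made in the striatum, whose markers differed between the Sham libraries. Its Sham values were 49.8 CPM in replicate 1 and 48.2 and 36.5 CPM in replicates 2 and 3, and the part of striatal tissue in its fall was not tested.

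Vascular genes also fell. Of 9 endothelial genes tested 3 fell (Pecam1, Emcn and Mfsd2a), none rose and all 9 had log2 fold changes below 0, and of 10 pericyte and smooth muscle genes 3 fell (Acta2, Rgs5 and Myh11) and 9 lay below 0. Pecam1, the adhesion molecule of endothelial junctions, was at 43.6, 46.0 and 38.4 CPM in Sham and at 18.5, 20.7 and 21.2 CPM in rt-PA+Acu (-1.08 ± 0.12, adjusted p = 0.00403). Both groups were tight, and the rt-PA libraries were higher than either at 64.8 to 84.9 CPM (-1.90 for rt-PA+Acu over rt-PA, adjusted p = 0.00104). Emcn, a sialomucin of capillary and venous endothelium, was at 11.3, 12.2 and 13 CPM in Sham and at 4.88, 3.57 and 4.34 CPM in rt-PA+Acu (-1.51 ± 0.19, adjusted p = 0.00647). Mfsd2a, the lipid transporter that restrains transcytosis at the blood-brain barrier, was at 31.1 to 42.6 CPM in Sham, 5.84 to 11.9 CPM in Model and 11.3 to 20.7 CPM in rt-PA+Acu (-1.13 ± 0.22 beside -2.04 in Model). Pecam1 and Emcn were called in all 6 fits that leave out a library, and Mfsd2a in 2. Of members that are not DEGs, Tek stood at -0.82, Kdr at -0.53 and Vwf at -0.38.

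On the mural side, Acta2, smooth muscle actin, was at 17.2, 26.0 and 22.1 CPM in Sham and at 6.32, 5.06 and 7.79 CPM in rt-PA+Acu (-1.76 ± 0.22, adjusted p = 0.00646). Model and rt-PA libraries held 13.9 to 32.0 CPM, so the low level was seen in the rt-PA+Acu libraries alone of the 4 groups, with -1.75 against rt-PA (adjusted p = 0.00796). Rgs5, a pericyte regulator of G protein signals, followed another order, at 84.1 to 96.9 CPM in Sham, 13.9 to 26.3 CPM over Model and rt-PA, and 32.8 to 43.4 CPM in rt-PA+Acu (-1.24 ± 0.12, adjusted p = 0.00314). Rgs5 in rt-PA+Acu thus lay between Sham and the other stroke groups, 1.01 above rt-PA on the log2 scale (adjusted p = 0.00848). Myh11, smooth muscle myosin, fell by 1.07 ± 0.16 (-1.07), and Pdgfrb, the growth factor receptor of pericytes, stood at -0.54 and Tagln at -0.94. Acta2 and Rgs5 were called in all 6 fits that leave out a library, and Myh11 in 2.

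Several endothelial genes outside the lists, named after their values were seen, were also DEGs. Ptprb, the endothelial phosphatase that acts on the Tie2 receptor, fell from 143 to 158 CPM to 62.4 to 66.8 CPM (-1.23 ± 0.09). Sox17, a transcription factor of arteries, fell by 1.86 ± 0.24 (-1.86). Dll4 (-1.26) and Notch4 (-1.18), a ligand and a receptor of endothelial Notch signalling, and Flt4 (-1.72), a receptor for vascular growth factors, fell as well. Abcg2, the efflux pump of the blood-brain barrier and among the 12 largest falls, was at 30.3, 51.8 and 42.1 CPM in Sham and at 9.26, 9.33 and 3.82 CPM in rt-PA+Acu (-2.48 ± 0.34), beside -3.25 in Model. Among the 11 tight junction genes tested there was no DEG and the median was -0.04, with 6 of the 11 below 0 and the difference from the vascular lists not tested. In the fit with a term for the library split, the endothelial median moved from -0.82 to -0.01 and the pericyte median to -0.37, and that of reactive astrocytes to 1.14 and of immediate early genes to -0.75. That term rests on Model replicate 3 against the other Model libraries, and Pecam1 in Model replicate 3 was at 118 CPM, above the 37.9 and 43.7 CPM of the others. In that fit Pecam1 stood at 0.45, Emcn at -1.85, Acta2 at -1.81 and Rgs5 at -0.77, none of them a DEG. Ptprb stood at 0.31, Dll4 at 0.43 and Notch4 at 0.01, while Sox17 (-0.12), Flt4 (-0.96) and Abcg2 (-1.64) stayed below Sham, also without a DEG. Of the 6 fits that leave out a library, Dll4 was called in 1 and Flt4 in 2. Ptprb, Sox17, Notch4 and Abcg2 were called in all 6.

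**Figure D4:**
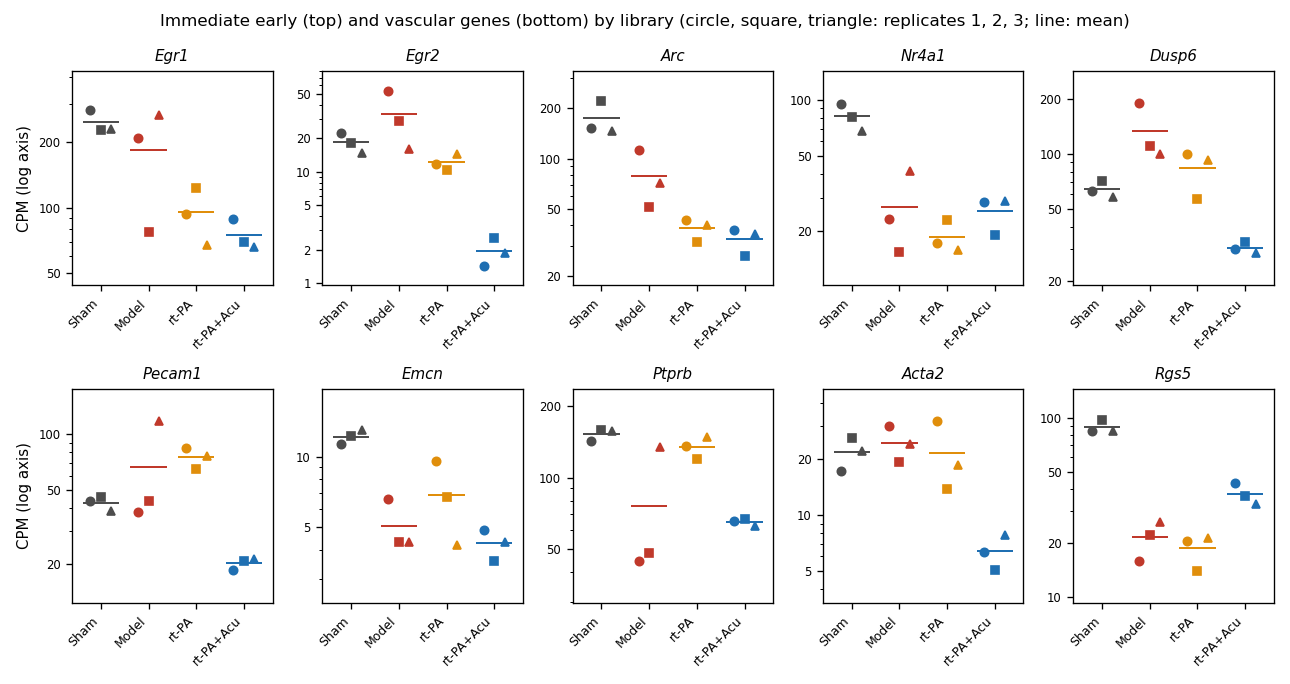
CPM on a log axis in every library for 5 immediate early or ERK-linked genes (top) and 5 vascular genes (bottom), with circle, square and triangle for replicates 1, 2 and 3 and a line at the mean. These genes were taken from the DEGs, at all of which the groups were apart, as they were at 30.7% of all genes tested. In all 10 panels the rt-PA+Acu points therefore lie below the Sham points. For Egr2, Dusp6, Pecam1 and Acta2 they also lie below the Model and rt-PA points, whereas for Rgs5 they lie above them.

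Glucocorticoid target genes were lower as a list, with a median of -0.71 over 16 tested, 14 of them below 0 and 2 that fell. The Model median was much the same at -0.72. Hif3a, a hypoxia-inducible factor subunit that also responds to glucocorticoids, was at 3.72 to 4.54 CPM in Sham and at 0.749 to 1.31 CPM in rt-PA+Acu (-2.11 ± 0.34), and Pdk4, the kinase that shuts off pyruvate dehydrogenase, was at 22.6, 20.1 and 36.5 CPM in Sham and at 12, 6.45 and 5.24 CPM in rt-PA+Acu (-1.74 ± 0.34). Neither was called in any fit without 1 of the Sham libraries, and Pdk4 stood at 0.71 in the fit with a term for the split. Sgk1 stood at -0.77 (adjusted p = 0.0856) and Nr3c1, the glucocorticoid receptor itself, at 0.12. With Sham replicate 1 as the only Sham library the list median was -0.38, and in the fit with a term for the split it was 0.42, so the direction of this list turned.

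Heat shock and cell cycle genes lay above Sham with few DEGs. Of 15 heat shock genes tested 14 were above 0, 11 had an unadjusted p under 0.05 (2964 of the 12775 genes tested did) and 1, Hspb1, was a DEG. Hsph1, a chaperone of the Hsp110 family, was at 412, 441 and 412 CPM in Sham and at 658, 567 and 2260 CPM in rt-PA+Acu, which gave 1.47 ± 0.48 (adjusted p = 0.121). The value of replicate 3 was above all Model and rt-PA libraries (685 to 986 CPM), and without it the list median was 0.28. Mcm5, a subunit of the replication helicase, was the 1 cell cycle DEG of 16 tested, at 0.728 to 1.05 CPM in Sham and at 3.12, 3.92 and 15.6 CPM in rt-PA+Acu (3.07 ± 0.68). Without rt-PA+Acu replicate 3 the cell cycle median was 0.21 in place of 0.71. Other members of that list with high counts, Ccnd2 (-0.07), Ccnd1 (-0.39) and Pcna (0.55), were not DEGs. Ncan, the neural proteoglycan of perineuronal nets and of reactive astrocytes, was at 116 to 125 CPM in Sham and at 267, 271 and 546 CPM in rt-PA+Acu (1.58 ± 0.27), and was the 1 DEG of the 11 perineuronal net genes. Spp1 was the 1 DEG of 24 matrix and integrin genes (median 0.01), Ftl1 the 1 DEG of 12 NRF2 and metallothionein genes (0.26), and Itgal and Lyz2 the 2 DEGs of 9 monocyte and macrophage genes (0.15). Mmp9 and Timp1 were the 2 DEGs of 12 matrix protease and inhibitor genes (0.53).

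Neuronal identity and synaptic genes were mostly close to Sham, while homeostatic astrocyte and myelin genes had medians below it without a DEG. None of 14 cortical excitatory genes was a DEG and their median was -0.06 beside -0.85 in Model. Slc17a7, the vesicular glutamate transporter of cortical excitatory neurons, was at 1310 to 1460 CPM in Sham and at 1450, 1880 and 953 CPM in rt-PA+Acu (0.02 ± 0.22, adjusted p = 0.976), against 724 to 838 CPM in Model, so replicate 3 was below Sham and the other treated libraries were not. The medians were -0.06 for 24 ionotropic glutamate and GABA receptor genes, 0.07 for 28 ion channel genes and 0.03 for 21 synaptic vesicle genes, each with no DEG, beside -0.85, -0.83 and -0.24 in Model. Homeostatic astrocyte genes had a median of -0.45 and no DEG of 12, beside -1.82 in Model. Of the 12, 9 lay below 0 and 3 above, with Glul at -0.58 and Aqp4 at 0.18. In edgeR's quasi-likelihood test 5 had an unadjusted p under 0.05, all lower, beside 2964 of all 12775 genes tested in either direction. Myelin genes had a median of -0.24 and no DEG of 12, and the sign of that median turned without rt-PA+Acu replicate 3 (0.14) and in the fit with a term for the split (0.91). Their summed level was 22600, 9460 and 3520 CPM in rt-PA+Acu replicates 1, 2 and 3 against 12900 to 19200 CPM in Sham. A spread of that size between treated libraries leaves a wide interval for any difference: Mbp, myelin basic protein, stood at -0.56 ± 0.58.

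Other pathways gave no DEG in either direction. Among stress and death programs these were 21 genes of the ATF4 and unfolded protein response (median 0.04), 16 of p53 and GADD45 arrest (0.22), 16 of hypoxia and glycolysis (0.14) and 14 of apoptosis and autophagy (0.08). Among signalling lists they were 14 STAT3 and SOCS genes (0.33 beside 1.84 in Model, and -0.04 without rt-PA+Acu replicate 3) with Stat3 at 1.03 (adjusted p = 0.112), 19 interferon response genes (-0.17), 7 antigen presentation genes (0.35) and 21 genes of TGF-beta, activin and BMP (-0.11). The 11 plasminogen and coagulation genes tested had a median of 0.10 beside 1.31 in Model. Plat, which encodes the rat's own tissue plasminogen activator, stood at -0.42 (adjusted p = 0.0505). The 15 circadian clock genes (0.04), 17 cholesterol genes (-0.08), 33 proteasome genes (0.19), 21 semaphorin, plexin and ephrin genes (0.00), 10 interneuron genes (0.14), 10 oligodendrocyte precursor genes (-0.46), 10 meningeal genes (0.34), 7 ciliary genes (-0.06) and 2 red blood cell genes (-0.89) also held none. All 10 oligodendrocyte precursor genes lay below 0, beside a Model median of -1.47. A gene that does not pass these thresholds with 3 libraries per group may still differ.

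The deepest falls in the comparison belonged to striatal neurons. Those of Drd2, Adora2a, Rgs9, Syndig1l and Drd1 rest largely on 2 Sham libraries, whereas that of Six3 does not. Of 13 striatal genes tested 8 fell and all 13 were below 0. Drd2, the D2 dopamine receptor, was at 3.96, 48.9 and 34.3 CPM in Sham and at 3.12, 2.53 and 1.95 CPM in rt-PA+Acu (-3.52 ± 0.79, adjusted p = 0.0442). Sham replicate 1 was near the treated libraries and replicates 2 and 3 were far above, and against Sham replicate 1 alone the difference was -0.65 (adjusted p = 0.754). Adora2a, the adenosine receptor of the same neurons, was at 7.03, 75.3 and 58.0 CPM in Sham and at 6.15, 3.92 and 4.87 CPM in rt-PA+Acu (-3.23, and -0.50 against Sham replicate 1 alone). Rgs9 (-3.66, and -1.45), Syndig1l (-5.50, and -1.55) and Drd1 (-1.53, and -0.75) followed. Six3, a homeobox gene of striatal precursors, had 150 counts over the Sham libraries and 2 over rt-PA+Acu (ratio 74.7, 95% counting interval 20.3 to 622). Its counts in Sham replicates 1, 2 and 3 were 22, 92 and 36, and against Sham replicate 1 alone the difference was -4.81. Lrrc10b, not on the list, fell by 4.56 ± 0.97 (-4.56, and -1.17 against Sham replicate 1 alone).

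Sham replicate 1 also lay well above the treated libraries for another member of the list. Pde10a, the phosphodiesterase of medium spiny neurons, was at 68.2, 124 and 86.2 CPM in Sham and at 27.7, 37.2 and 26.5 CPM in rt-PA+Acu (-1.61 ± 0.23, and -1.17 against Sham replicate 1 alone). Pde10a was called in all 6 fits that leave out a library. Over the list the median went from -1.61 to -0.65 when Sham replicate 1 stood for Sham, and Model over Sham was -2.28 with all 3 Sham libraries. Ppp1r1b, the dopamine signal regulator DARPP-32, was at 144, 446 and 345 CPM in Sham and at 182, 163 and 91.2 CPM in rt-PA+Acu and was not a DEG. Genes more than 2-fold higher in both Sham replicates 2 and 3 than in Sham replicate 1 numbered 141 or 1.10% of those tested, and 15 DEGs, 7 of them falls, were of this kind. With them and the striatal list set aside, 244 DEGs (109 higher, 135 lower) were left.

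A set of rises followed the library split. Of the 54 split genes 50 were tested and 36 were DEGs, 33 higher and 3 lower (Efcc1, Bok and Slc9a5). The rule for a split gene asks that every rt-PA+Acu library lie over 1.5-fold outside the Sham range. A high share of DEGs among split genes therefore follows from the rule. Ribosomal protein genes were frequent among the split genes. Of 65 tested, 8 rose (Rpl39, Rpl38, Rps20, Rpl30, Rpl9, Rps6, Rps4x and Rpl22) and none fell, while the median over all 65 was -0.08. All of these 8 but Rps20 were split genes. Rpl39, a small protein of the large ribosomal subunit, was at 9.86, 11.6 and 9.17 CPM in Sham, 60.5, 63.2 and 11.7 CPM in Model, 59.5 to 71.0 CPM in rt-PA and 53.6, 42.5 and 53.7 CPM in rt-PA+Acu (2.29 ± 0.15, adjusted p = 0.00188). Model replicate 3, an untreated stroke library, thus lay with Sham and not with the other stroke libraries. Rpl38 was at 15.5, 26.7 and 13.9 CPM in Sham, 82.2, 78.2 and 19.1 CPM in Model and 97.2, 59.8 and 81.7 CPM in rt-PA+Acu (2.08 ± 0.27). Rps20 (1.66 ± 0.13) was at 72.6 CPM in Model replicate 3, between Sham (40.5 to 46.5 CPM) and the other Model libraries (213 and 218 CPM). Ribosomal protein genes have many near-identical processed copies in the genome, so their counts are uncertain.

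The split reached beyond ribosomes. Cbr1, carbonyl reductase 1, was at 7.36, 7.04 and 5.77 CPM in Sham, 59.9, 47.8 and 10.2 CPM in Model and 24.0, 24.7 and 25.1 CPM in rt-PA+Acu (1.87 ± 0.15). Uqcrb, a subunit of respiratory complex III, was at 55.4 to 63.9 CPM in Sham, 55.3 CPM in Model replicate 3, and 113 to 126 CPM in rt-PA+Acu (1.00 ± 0.10), and was the 1 DEG of 66 oxidative phosphorylation genes tested. Gphn, the scaffold of inhibitory synapses (1.05), the splicing proteins Snu13 (1.12) and Snrpg, the ferritin light chain Ftl1 (1.31), the protocadherin Pcdh7 (1.49) and the water channel Aqp1 (2.67) were of this kind too. Aqp1 was the 1 DEG of the 2 choroid plexus genes that could be tested of 11. In the fit with a term for the split, Rpl39 stood at -0.11, Rpl38 at 0.01, Cbr1 at -0.54 and Uqcrb at 0.04. These genes were chosen by the pattern that the term describes. The loss of their rise in that fit therefore follows from the choice. Counted over all rises, 62 of the 117 had Model replicate 3 more than 1.5-fold above the highest Sham library and 55 did not. Gfap, Timp1, Lcn2, Hspb1, Cd44, Gpnmb, Lgals3 and Mmp9 had Model replicate 3 at 25.5 CPM (Lcn2) or more, above every Sham library.

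**Figure D5:**
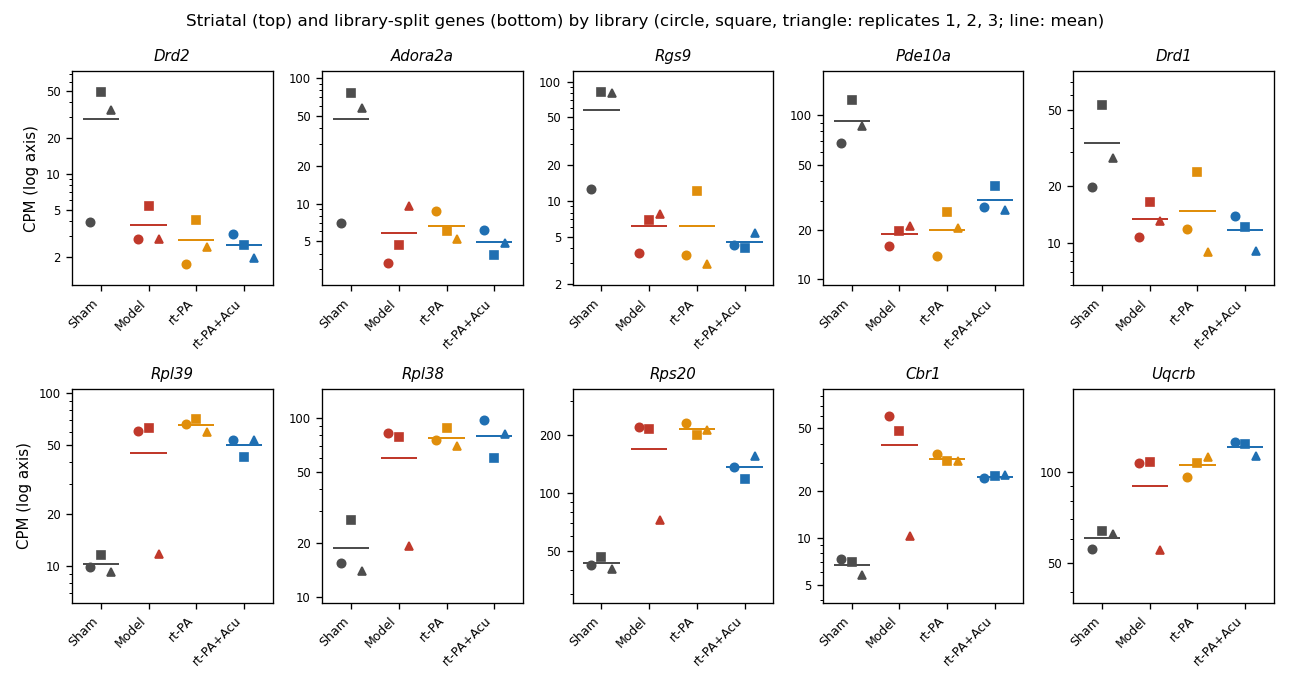
CPM on a log axis in every library for 5 striatal genes (top) and 5 genes at or near the library split (bottom). Rps20 did not meet the rule for a split gene. Circle, square and triangle mark replicates 1, 2 and 3, with a line at the mean. For Drd2, Adora2a and Rgs9 the circle of Sham lies close to the other groups and the square and triangle far above. In the bottom row the triangle of Model lies at or near the Sham points, away from the other Model points.

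The largest changes include genes outside these groups. Gng5, a G protein gamma subunit, had 0 counts in each Sham library and 76 over the 3 rt-PA+Acu libraries, at least 8.49-fold higher against a floor of 3 counts per library. H19, an imprinted noncoding RNA, had 5 counts over Sham and 370 over rt-PA+Acu (ratio 74.3, 95% counting interval 31.6 to 230), with 2.95, 8.28 and 18.0 CPM in rt-PA+Acu against 60.7 to 83.0 CPM in Model. Sprr1a, a small proline-rich protein linked to axon regrowth, was at 0.485 to 2.71 CPM in Sham, 8.25, 15.0 and 40.2 CPM in rt-PA+Acu and 133 to 306 CPM in Model (3.94 ± 0.73). These low levels in Sham make the ratios large and imprecise. FAM187A (4.62) and RGD1308750 (4.02) rose as well. Mmrn1, multimerin of platelets and endothelium, had 4 counts in Sham and 49 in rt-PA+Acu (ratio 12.3, interval 4.51 to 47.0), and Model replicate 1 held 0.458 CPM and the other Model libraries none. Among the falls, Tfap2d, a transcription factor of the AP-2 family (-2.39, and 0.09 in the fit with a term for the split), and Cyp4b1, a cytochrome P450 (-2.29), completed the 12 largest, and Cyp4b1 was at 1.46 CPM in Sham replicate 1 against 4.36 and 3.93 CPM in the others.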

How the data were processed

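The authors deposited raw whole-number counts per gene symbol and library, not normalized, from cerebral cortex of rats in 4 groups of 3. The submitters' processing notes name STAR 2.7.10a, featureCounts 2.0.1, Salmon 1.9.0 and the build mRatBN7.2, from paired reads of 150 bases. The adapters carried molecular identifiers, but their use in counting is not given in the sources used here, so counting intervals cover counting error only. Promoter sequences came from RefSeq build GRCr8, and gene positions in the authors' build were not used here.

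Tests were run with edgeR 4.0.16 in R 4.3.3 (filterByExpr, TMM, quasi-likelihood test, Benjamini-Hochberg adjustment) on the 6 libraries, with DESeq2 1.42.0 and limma 3.58.1 installed for alternatives, and plotted in Python 3.11.15 with matplotlib 3.10.9. SE is the absolute log2 fold change over the root of F. The fit was tested on simulated data. The comparison, lists, split and striatal check were chosen with earlier results of these data known. Named genes were the 12 largest rises and falls with a mean of at least 1 CPM in the higher group and no overlap, DEGs on a list, split genes, and up to 4 further members of a list with the most counts. Not analysed here were Xist, Ocln, Cldn5 and Bcl2.

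Alternatives were DESeq2, RLE factors, library size alone, other filters and thresholds, 1 fit over all 12 libraries with and without a term for the split, a replicate block, Sham replicate 1 alone, and leaving out each library.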

Additional observations from a re-analysis of the deposited data

How the results depend on the processing

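The 263 rt-PA+Acu vs Sham DEGs (117 higher, 146 lower) numbered 422 (196, 226) with DESeq2, 583 (285, 298) with an unadjusted p and 651 (217, 434) with no fold threshold. RLE factors, library size alone, other filters, 1 fit over all 12 libraries, and setting aside striatal genes gave 239 to 283. Leaving out 1 library gave 82 to 359 DEGs (45 to 150 higher, 37 to 209 lower), with the lowest count without Sham replicate 2 and the highest without rt-PA+Acu replicate 1, and with 146 without Sham replicate 1 and 133 without Sham replicate 3. With Sham replicate 1 alone, which is then assumed to vary like the rt-PA+Acu libraries, edgeR called 0 (0 higher, 0 lower). Added after seeing the data, that contrast gave 480 (228, 252) with an unadjusted p and 163 (89, 74) with DESeq2. A term for the library split left 4 (3, 1). All DEGs that could be tested kept their direction in the other alternatives, and 221 of 263 did with that term. In fits that drop libraries, the kept direction largely follows from groups that did not overlap at any of the 263. Same-numbered Sham and rt-PA+Acu libraries deviated from their group means with correlations of -0.119, -0.0903 and -0.139, so the numbers do not pair them, and the replicate block gave 194 DEGs (85, 109).

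With the term for the split, 21 of the 99 DEGs named by the rule given above changed sign. For them the log2 fold change became -0.408 for Ak6, -0.775 for Aqp1, -0.538 for Cbr1, -0.0846 for Crnkl1, 1.45 for Efcc1, -0.0952 for Gphn, 0.659 for Lpl and -1.17 for Mmrn1. It became -0.0239 for Ncoa4, -0.122 for Nsun4, -0.00262 for Pcdh7, 0.714 for Pdk4, 0.452 for Pecam1, -0.0718 for Rbis, -0.108 for Rpl39, -0.233 for Rpl9 and -0.188 for Sap18. For Snu13 it was -0.0599, for Tfap2d 0.0897, for Tor1aip2 -0.156 and for Ubxn2a -0.0132. Endothelial genes named after their values were seen are outside that count. Of these, Ptprb (0.314), Dll4 (0.429) and Notch4 (0.0119) changed sign too, and Sox17 and Flt4 did not. For the split genes among the 21, the loss of their difference follows from how they were chosen. The cause was not tested. Of 99 named DEGs, 76 kept their direction but not their call with that term, and 51 lost their call without Sham replicate 2. Counts of 11678450 or more per library limit low genes such as H19, which had 5 counts over the 3 Sham libraries.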
